A study of Saccharomyces cerevisiae with 219 samples.

Results

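The transcripts described here encode enzymes and carriers with which Saccharomyces cerevisiae makes glucose 6-phosphate precursors from acetate and ethanol. They are 10 genes, PCK1, FBP1, MDH2, ICL1, MLS1, CIT2, SFC1, ACS1, ADY2 and ADH2, of 5710 named genes on the larger of the array designs used. They were taken by gene symbol as a set of known function, and their values played no part in the rule. Each had a single probe on each design (locus tags YKR097W, YLR377C, YOL126C, YER065C, YNL117W, YCR005C, YJR095W, YAL054C, YCR010C and YMR303C in the same order).

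In yeast grown on nonfermentable carbon, acetate is activated to acetyl-CoA, fed into the glyoxylate cycle to make malate and oxaloacetate, and taken back up the glycolytic path as phosphoenolpyruvate and fructose 6-phosphate. Glucose represses the transcription of most of these genes, and the activators Cat8, Adr1 and Sip4 with the Snf1 kinase turn them on when glucose is gone. In stationary phase, which follows the use of ethanol and acetate in rich medium, little external carbon remains. ADY2 encodes an acetate transporter of the plasma membrane, ADH2 the alcohol dehydrogenase that oxidizes ethanol, and ACS1 an acetyl-CoA synthetase. CIT2 encodes the peroxisomal citrate synthase, ICL1 isocitrate lyase, MLS1 malate synthase and MDH2 the cytosolic malate dehydrogenase of the cycle. SFC1 encodes the mitochondrial succinate-fumarate carrier, PCK1 phosphoenolpyruvate carboxykinase and FBP1 fructose-1,6-bisphosphatase.

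The series held 219 arrays in 7 sets, all of batch cultures in YPD+A, and all but the exponential lysates were of stationary phase cultures. Cells of the haploid wild-type strain S288c, cultured for 7 days in the set whose labels state it, received menadione, a quinone that generates superoxide (50 µM in the labels of that set), and were sampled at 0.5 to 8 h (32 arrays, with 6 T0 arrays), at 1 to 60 min (72 arrays, with 6 T0) and at 10 to 300 s (19 arrays, with 6 T0). A further 32 arrays followed S288c cells for 30 to 480 min after a temperature upshift, with no T0 arrays of their own. The polymerase set held cells with rpb1-1, a temperature-sensitive allele of the gene for the largest RNA polymerase II subunit, and ura3-52, their parental strain with ura3-52, and S288c, each with 2 arrays before menadione and 1 array each at 2 and 30 min. The methods of the study state that all 3 strains were moved beforehand to the temperature non-permissive for rpb1-1, which the S288c arrays shared with other sets leave unsettled for S288c. Its methods give ura3-52 among the markers of S288c as well, with his3, leu2, lys2 and trp1. Cell-free lysates of stationary phase (16 arrays) and exponential (12 arrays) cultures were kept in a protease (trypsin, proteinase K or Qiagen protease) or in buffer, and 4 of the stationary phase lysates came from cells 2 min into menadione. Total RNA of unstressed stationary phase cells was also isolated with hot phenol, with proteinase K during isolation, or by the modified Gentra method (2 arrays each). The labels of the 30 minute and 1 minute courses and of the upshift name no treatment, which was taken from the methods of the study.

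Every value below is a log2 ratio of the sample to a common reference of stationary phase and exponential RNA, with the median of all genes on the array set to 0. A value of 1 thus stands for a ratio to the reference that was 2 times that of the median gene, and levels of different genes are not comparable. Differences were tested with limma across all genes of a set, and rose and fell are used only where the Benjamini-Hochberg adjusted p was under 0.05 and the change was at least 2-fold. An array gave values for 742 to 5489 genes. Array medians before centring ran between -1.53 and 2.39 in the 30 minute course and between -2.25 and 2.71 in the lysates, and the median difference of all genes between the first 2 h of menadione and T0 was 1.05 without and -0.02 with centring. In RNA from whole cultures, more cells with a transcript and more transcript per cell cannot be told apart.

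Some arrays stood apart or appeared under more than one label. T0 replicates 4 and 5 of the 10 second course equalled the 0 min S288c arrays of the polymerase set at 99.7 and 99.6% of 4172 and 4446 shared genes, after a constant shift and within 0.005 log2. The S288c arrays labelled 2 and 30 min in the polymerase set were the same as a 2 min and a 30 min array of the 1 minute course at 100% of genes. The tests on the 10 second course, the 1 minute course and the polymerase set are given with and without them. Of the lysates labelled stationary phase, 6 had median values of a list of 10 stationary phase genes (SNZ1, HSP26, SPG4 and others, with 6 to 10 of them measured on an array) between -8.56 and -2.14, where both trypsin buffer lysates of unstressed stationary phase cells had 3.03 and 2.54 and the 6 exponential buffer lysates ran between -7.31 and -2.19. Both exponential lysates in Qiagen protease had medians above 0 (0.22 and 1.45). The lysates are therefore called by their labels. The 6 T0 arrays of the 1 minute course each matched 1 T0 array of the 30 minute course (r = 0.977 to 0.981 over all genes) and were not counted as further replicates.

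In the first 2 h of menadione the members did not move together. PCK1 of gluconeogenesis and MDH2 and MLS1 of the glyoxylate cycle rose, while ADY2, ACS1 and ADH2, which bring in acetate and ethanol carbon, fell. Of 8 members tested 3 rose and 3 fell, where 12.7% of 3285 genes rose and 12.3% fell, and the median difference was 0.20 for the members and -0.02 for all genes. ICL1 and SFC1 had a value in 30 and 21 of the 38 arrays, and did not reach the minimum of a value in 80% of the arrays fitted.

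PCK1 had a lowest, median and highest value of 0.66, 1.74 and 2.56 in the 8 arrays of 0.5 to 2 h, against -0.56, -0.45 and 0.21 in the 6 T0 arrays. Every treated array lay above every T0 array, and the difference was 1.98 ± 0.37 (SE; 3.95-fold, adjusted p = 4.86e-05). MDH2 ranged between -0.99 and 3.11 (median 1.91) in treated cells and between -0.61 and 1.10 (median -0.14) at T0. A single 0.5 h array lay below all T0 arrays, and MDH2 rose by 1.58 ± 0.38 (adjusted p = 0.000932). Without the arrays of the first replicate series the MDH2 difference was 0.85 (adjusted p = 0.0161), under 2-fold. MLS1 ranged between 2.54 and 4.59 (median 3.96) under menadione and between 2.08 and 2.82 (median 2.38) at T0, a rise of 1.34 ± 0.38 (adjusted p = 0.00481) with ranges that met only at their ends.

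The fall of ADY2, the acetate transporter, was the widest difference among the 8 tested members at these times. Its 7 values of 0.5 to 2 h ran from -2.87 to -0.18 with a median of -1.44, against 2.52 to 3.11 with a median of 2.69 in 5 T0 arrays. The groups lay far apart, and ADY2 fell by 4.19 on the log2 scale (SE 0.34, 18.2-fold, adjusted p = 1.27e-12). ACS1 ran from -0.36 to 2.06 (median 0.33) in treated cells and from 2.48 to 3.54 (median 2.72) at T0, with no overlap, and fell by 2.26 (SE 0.29, adjusted p = 3.64e-08). ADH2 ran from -2.56 to 0.53 (median -1.54) in treated cells and from -1.21 to 0.88 (median 0.27) at T0, a fall of 1.23 (SE 0.37, adjusted p = 0.00815) that without centring was 0.16 (adjusted p = 0.779).

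FBP1 and CIT2 did not pass at these times. FBP1 differed by 0.41 ± 0.26 (adjusted p = 0.223), and CIT2 by -0.01 ± 0.21 (adjusted p = 0.987). Neither value was stable to the scale, since without centring they were 1.48 (adjusted p = 0.00379) and 1.06. SFC1, the succinate-fumarate carrier, had 1.46 to 3.12 in the 5 arrays of 0.5 to 2 h with a value, against -2.65 and -2.11 in 2 T0 arrays. ICL1 had -1.98 to 2.12 in 6 arrays of these times, overlapping its -1.26, -0.79 and -0.51 at T0.

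**Figure D1:**
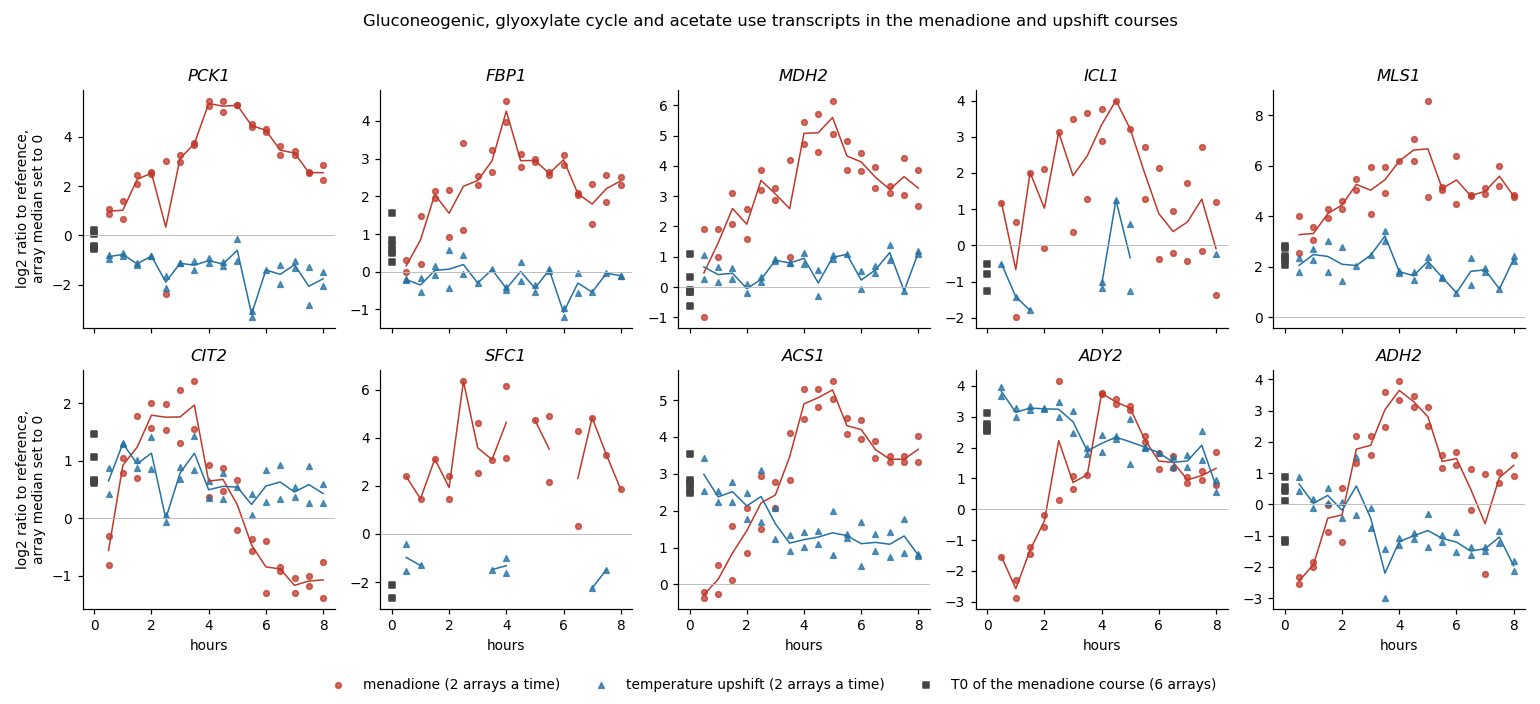
Centred log2 ratio (vertical axis) of each of the 10 transcripts against hours (horizontal axis) after menadione (circles, 2 arrays a time), after the temperature upshift (triangles, 2 arrays a time) and at T0 of the menadione course (squares, 6 arrays), with lines through the means. PCK1 climbed to 5.36 at 4 h of menadione and stayed below 0 in every upshift array, while CIT2 peaked at 3.5 h and lay below 0 from 5.5 h on.

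By 5 to 8 h of menadione 6 of the 8 tested members were above T0 and 2 below it (10.2 and 18% of all genes tested rose and fell), with a median difference of 1.44 for the members and -0.26 for all genes. PCK1 ranged between 2.25 and 5.29 (median 3.52) in the 14 late arrays, which was 3.98 ± 0.34 above T0 (15.8-fold, adjusted p = 6.01e-13). MDH2 ranged between 2.68 and 6.16 (median 3.85), 3.91 ± 0.34 above T0 (15.1-fold, adjusted p = 1.57e-12). MLS1 ranged between 4.49 and 8.58 (median 4.95), 2.90 ± 0.34 above T0 (7.44-fold, adjusted p = 5.5e-09). For these 3 transcripts every late array exceeded every T0 array.

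FBP1, the phosphatase that commits carbon to gluconeogenesis, ran between 1.26 and 3.10 (median 2.54) in late arrays and between 0.27 and 1.55 (median 0.63) at T0. It rose by 1.69 ± 0.24 (3.24-fold, adjusted p = 1.88e-07), and the ranges overlapped at their ends. ACS1, which had fallen early, was 1.18 ± 0.26 above T0 (2.26-fold, adjusted p = 0.000264), with 3.31 to 5.51 in late arrays and an overlap with the highest T0 array. Without the first replicate series the ACS1 difference was 1.00, just under 2-fold. ADH2 was 1.15 ± 0.34 above T0 (adjusted p = 0.00479), with -2.22 to 3.11 in late arrays. The call for ADH2 was lost without T0 replicate 3 (0.93), without T0 replicate 5 (0.92) and without the second menadione series (0.80, adjusted p = 0.0522).

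CIT2 and ADY2 were the members below T0 at 5 to 8 h. CIT2 ran from -1.38 to 0.67 (median -0.88) in late arrays and from 0.61 to 1.47 (median 0.66) at T0, and fell by 1.61 (SE 0.19, 3.04-fold, adjusted p = 2.7e-09). All but the highest late array were under the T0 range, and without centring the CIT2 difference was -0.45 (adjusted p = 0.213). ADY2 fell by 1.02 (SE 0.30, 2.02-fold, adjusted p = 0.00541), a direction that turned to 0.23 without centring, and its call was also lost without T0 replicate 2 (-0.92) or the second menadione series (-0.89). SFC1 had 0.32 to 4.89 in 8 late arrays, all above its 2 T0 values. ICL1 was tested when only late and T0 arrays entered the fit and then rose by 2.04 ± 0.75 (13 arrays against 3, adjusted p = 0.0484), with late values of -1.38 to 3.21 that overlapped T0. The series differed, with late ICL1 values of -1.38 to 1.29 in the first and 0.96 to 3.21 in the second, against -1.26 to -0.51 at T0.

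Between these windows, 7 of 8 tested members rose and CIT2 fell from early to late menadione (6.7 and 15.3% of genes tested rose and fell). The widest rises were those of the transcripts that had fallen first, ACS1 by 3.44 ± 0.24 (10.9-fold), ADY2 by 3.17 ± 0.28 (8.99-fold) and ADH2 by 2.38 ± 0.31 (5.20-fold). For ACS1 and ADY2 no late array overlapped an early one. MDH2 rose by 2.33 ± 0.31, PCK1 by 2.00 ± 0.31, MLS1 by 1.56 ± 0.31 and FBP1 by 1.28 ± 0.22, all with overlapping ranges and adjusted p between 4.56e-08 (MDH2) and 7.83e-05 (MLS1). The FBP1 call was lost without the second menadione series (0.89). CIT2 fell by 1.60 (SE 0.17, adjusted p = 2.1e-10).

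The courses peaked between 3.5 and 5 h. Means of the 2 arrays a time were highest at 4 h for PCK1 (5.36), FBP1 (4.26), ICL1 (3.33), SFC1 (4.64), ADY2 (3.75) and ADH2 (3.64). They were highest at 5 h for MLS1 (6.66), MDH2 (5.60) and ACS1 (5.27). CIT2 reached its highest mean earlier, 1.97 at 3.5 h, and its lowest, -1.17, at 7 h. The low points of the uptake and activation transcripts came before their peaks, -2.45 at 0.5 h for ADH2, -0.28 at 0.5 h for ACS1 and -2.58 at 1 h for ADY2. Early low points were not particular to them. FBP1 (0.15), MLS1 (3.27) and MDH2 (0.46) also had their lowest means at 0.5 h, and ICL1 (-0.67) at 1 h. Times with 1 value were left out of these peaks, and the 2 MLS1 arrays at 5 h differed widely, 4.75 and 8.58.

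The first-series array at 2.5 h went against its neighbours. It had a PCK1 value of -2.37 where the other 2.5 h array had 3.04, and an ADY2 value of 4.15 where the other had 0.30. This array lies in neither window and enters the fit only through the estimated spread.

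Transcripts of the neighbouring steps did not follow as a group. Of 19 tested isozymes and tricarboxylic acid cycle genes 3 rose and 3 fell early, and 1 rose and 6 fell late (median differences 0.01 and -0.78). Among all genes tested 12.7% rose and 12.3% fell early, and 10.2% rose and 18% fell late. CIT1, the mitochondrial citrate synthase, differed by 0.11 ± 0.14 early (adjusted p = 0.542) and fell by 1.89 (SE 0.12) late, and CIT3 fell by 2.49 and 2.80. MDH3, the peroxisomal malate dehydrogenase, fell by 1.26 early and differed by -0.87 late, and the mitochondrial MDH1 by 0.11 and -0.67, where the late values of both were under 2-fold and of opposite sign without centring (0.28 and 0.48). The glucose-induced alcohol dehydrogenase ADH1 differed by -1.34 at both times (adjusted p = 0.0917 early and 0.0584 late). IDP2, the cytosolic isocitrate dehydrogenase of growth on acetate, rose by 1.75 and 1.67. ACS2 did not reach the minimum of arrays with a value.

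Among 16 tested genes of ethanol, acetate, lactate, glycerol and carnitine use, 2 rose and 6 fell early, and 4 rose and 5 fell late, of which 3 of those that fell changed sign without centring (median differences -0.63 and -0.67). The cytosolic acetaldehyde dehydrogenase ALD6 rose by 3.10 early and 1.65 late, the carnitine acetyltransferase CAT2 rose by 1.30 and 2.28, and FOX2 of peroxisomal beta-oxidation fell by 2.28 and 1.64. Of 15 tested regulators 1 rose and 4 fell early and 5 fell late, with 2 of the early and 3 of the late falls of opposite sign without centring (median differences -0.47 and -0.57). Beside both lists, 12.7% of all genes tested rose and 12.3% fell early, and 10.2% rose and 18% fell late. CAT8, the activator of PCK1, FBP1 and ICL1, fell by 1.93 (SE 0.31) early and 1.42 (SE 0.28) late, and kept its sign without centring (-0.86 and -0.27). ADR1, the activator of ADH2 and ACS1, differed by -0.15 and -0.80, and the kinase gene SNF1 by -0.86 and -0.26, all under 2-fold and all above 0 without centring (0.92, 0.39, 0.20 and 0.89). SIP4 did not reach the minimum of arrays with a value.

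Glycolytic transcripts moved the other way from PCK1 and FBP1 at late times. Of 17 tested, 1 rose and 7 fell early and 12 fell late (median differences -0.92 and -1.47), with no change of sign without centring. The shares of all genes tested were 12.7% rising and 12.3% falling early, and 10.2% rising and 18% falling late. CDC19, the pyruvate kinase opposite PCK1, fell by 1.68 early and by 3.95 late (15.4-fold), and TDH3, the glyceraldehyde-3-phosphate dehydrogenase, by 1.38 and 2.65. Of 5 tested genes of the GID ubiquitin ligase, which marks Fbp1 and other gluconeogenic enzymes for breakdown when glucose returns, 3 fell early and 3 late, of which 1 late fall turned without centring. VID24, its substrate receptor, fell by 3.12 late (SE 0.31, 8.69-fold). Beside these, medians of the stationary phase list were 1.90 to 2.47 at T0, -1.06 to 0.46 early and 1.10 to 1.71 late, and those of a list of 10 ribosomal protein genes, of which at most 9 were measured, were -4.32 to -3.79 at T0, -2.98 to -2.60 early and -6.51 to -5.12 late. The part of these shifts in the members' values was not tested.

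Late after the temperature upshift no tested member was called higher than T0. In the 300 to 480 min arrays, set against the T0 arrays of the menadione course, 5 of 8 tested members fell (9.16% of genes tested rose and 8.4% fell), with a median difference of -1.06 for the members and -0.12 for all genes. ACS1 had a lowest, median and highest value of 0.51, 1.10 and 2.00 in 14 late upshift arrays, against 2.48, 2.72 and 3.54 at T0. The ranges did not meet, and ACS1 fell by 1.64 (SE 0.26, 3.12-fold, adjusted p = 3.04e-06). PCK1 ran from -3.32 to -0.16 (median -1.41) in 13 upshift arrays, overlapping T0, and fell by 1.41 (SE 0.35, adjusted p = 0.00143). FBP1 ran from -1.20 to 0.08 in 12 upshift arrays and lay under its T0 range, with a fall of 1.08 (SE 0.25, adjusted p = 0.00068).

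ADH2 fell by 1.23 (SE 0.34, adjusted p = 0.00405) and ADY2 by 1.03 (SE 0.31, adjusted p = 0.00903) after the upshift, both with ranges that overlapped T0. CIT2 differed by -0.36 ± 0.19 (adjusted p = 0.159), MDH2 by 0.65 ± 0.36 (adjusted p = 0.168) and MLS1 by -0.75 ± 0.35 (adjusted p = 0.108). Only ACS1 of the 5 kept its call without centring, where PCK1 had -1.13 (adjusted p = 0.163). Without the second upshift series the calls of ADY2 (-0.88) and ADH2 (-1.10, adjusted p = 0.0647) were lost, without T0 replicate 1 that of FBP1 (-0.92), and without T0 replicate 2 that of ADY2 (-0.93). Within the upshift, ADY2, ADH2 and ACS1 fell by 1.67, 1.49 and 1.34 between 30 to 120 min and 300 to 480 min (2.22% of genes rose and 2.62% fell). Only ADY2 did so without overlap of the ranges, and ADH2 lost its call when either series was left out. ICL1 and SFC1 had values in 9 and 8 of 32 upshift arrays.

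**Figure D2:**
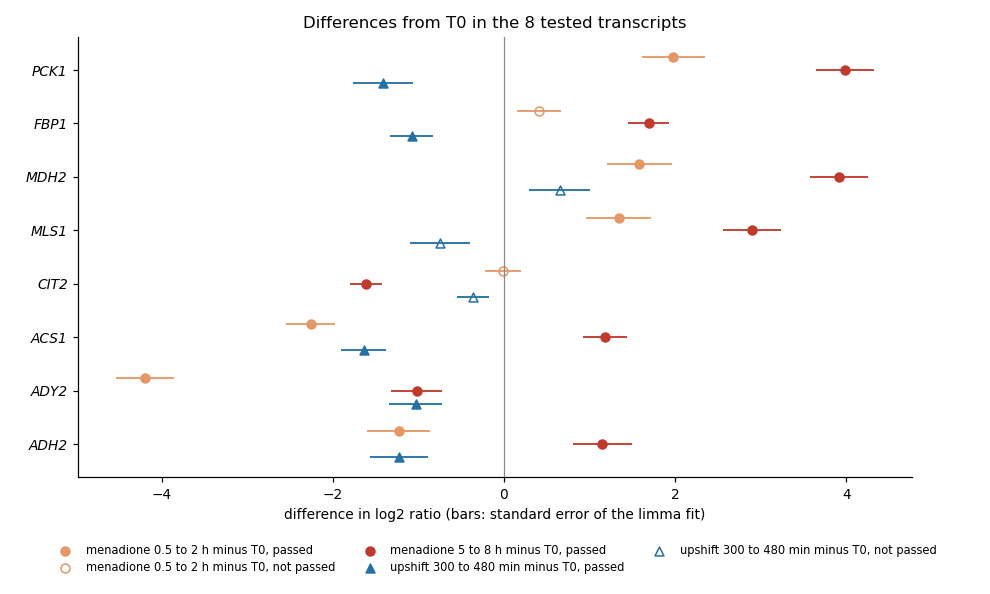
Difference in centred log2 ratio from the T0 arrays (horizontal axis, bars the standard error of the limma fit) for the 8 tested transcripts at 0.5 to 2 h and 5 to 8 h of menadione and at 300 to 480 min of the upshift, with filled symbols for an adjusted p under 0.05 and at least 2-fold. ACS1 and ADH2 lay on opposite sides of 0 early and late in menadione, PCK1 lay at 3.98 late in menadione and at -1.41 after the upshift, and ADY2 lay at -1.02 late in menadione, which without centring was 0.23.

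Late menadione arrays stood above late upshift arrays in 6 of the 8 tested members and below them in CIT2 (13.2 and 23.1% of genes tested), with a median difference of 2.80 for the members and -0.21 for all genes. PCK1 was 5.39 ± 0.27 higher under menadione (42-fold, adjusted p = 1e-20), MLS1 3.64 ± 0.28 (12.5-fold) and MDH2 3.26 ± 0.28 (9.58-fold). ACS1 was 2.82 ± 0.20 higher (7.05-fold), FBP1 2.78 ± 0.20 (6.86-fold) and ADH2 2.38 ± 0.26 (5.21-fold). In PCK1, FBP1, MLS1, MDH2 and ACS1 no menadione array overlapped an upshift array. The same held for SFC1, which was not tested and had values in only 8 menadione and 2 upshift arrays. The share of all genes without overlap was not counted. CIT2 was 1.24 lower under menadione (SE 0.15, adjusted p = 2.3e-09, -0.34 without centring), and ADY2 differed by 0.01 ± 0.23 (adjusted p = 0.978, and 1.15 without centring).

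Of 16 tested genes of ethanol, acetate, lactate, glycerol and carnitine use, 8 fell after the upshift against T0, and 5 were higher and none lower in late menadione than in late upshift arrays. Of 17 glycolytic genes 2 fell after the upshift, and 1 was higher and 9 were lower in menadione than in upshift arrays. Of all genes tested 9.16% rose and 8.4% fell after the upshift, and 13.2% were higher and 23.1% lower in menadione than in upshift arrays. CAT2 was 3.83 and ALD6 2.76 higher under menadione than after the upshift, and HAP4, VID24 and CAT8 were 3.94, 3.80 and 2.68 lower. CAT8 rose by 1.26 (SE 0.28) after the upshift against T0. The 2 treatments were separate experiments, and treatment and experiment cannot be told apart.

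The members were followed across the 70 arrays of both courses. Pearson correlations between the 28 pairs of the 8 well measured members ran from -0.22 to 0.889 with a median of 0.662. Pairs with CIT2 had a median of -0.118 and pairs with ADY2 one of -0.016, where the pairs of each of the other members had medians of 0.663 to 0.750. The 5 genes most like the mean of these 8 members, of 3277 compared, were GOR1 (r = 0.944), ALD4 (0.938), CTA1 (0.905), OM14 (0.884) and ATO3 (0.861). GOR1 encodes a glyoxylate reductase, ALD4 the mitochondrial acetaldehyde dehydrogenase, CTA1 the peroxisomal catalase, OM14 a protein of the mitochondrial outer membrane and ATO3 a membrane protein related to Ady2. The arrays share the 2 courses and their reference RNA, so that the correlations describe these arrays only, and within the upshift that of ALD4 was 0.485.

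In the 1 minute course no member passed between its first and its last minutes before 60 min. PCK1 ran between 3.08 and 4.43 (median 3.53) in the 70 arrays of 1 to 35 min. Between 31 to 35 min and 1 to 5 min none of 9 tested members passed the limma test, nor without the 2 min array also labelled S288c (0.0251% of 3986 genes passed; 386 genes and no member had an unadjusted p under 0.05). The largest difference was that of MLS1, -0.86 ± 0.69 (adjusted p = 0.717), and PCK1 differed by -0.19 ± 0.18. In the first replicate series alone ACS1 had 1.41 to 1.96 at 31 to 35 min, under its 1.97 to 2.58 at 1 to 5 min, which was not tested. The second series overlapped, with ACS1 at 1.48 to 2.19 against 1.60 to 2.64. Over both series ACS1 differed by -0.24 ± 0.15 in limma (adjusted p = 0.633). At 60 min PCK1 had 2.87 and 3.06, below all 70 earlier arrays.

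The T0 arrays of this course were on the other array design, so their values are set side by side with no test. PCK1, at 3.08 to 4.43 in treated cells, had -0.62 to 0.01 at T0. ICL1 had 1.24 to 3.66 in treated cells and -2.83 to -0.42 in the 4 T0 arrays that measured it. ADY2 went the other way, with 0.24 to 2.66 in treated cells and 2.39 to 3.13 at T0, and ACS1 had 1.41 to 2.87 in treated cells and 2.50 to 3.40 at T0. The 30 minute course, on the design of these T0 arrays, had PCK1 values of 0.88 and 1.08 at 0.5 h, below all treated arrays of the 1 minute course. At 1 h it had ADY2 values of -2.87 and -2.28, where the 60 min arrays of the 1 minute course had 1.65 and 2.29. Array design, experiment and treatment cannot be told apart here.

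**Figure D3:**
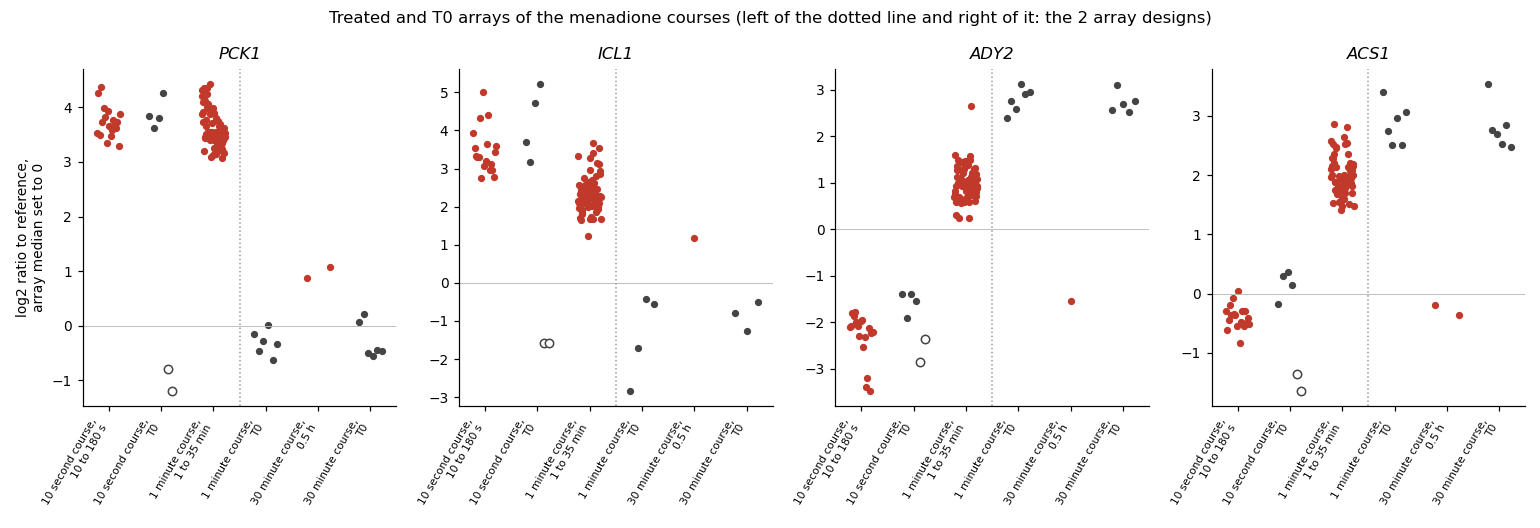
Centred log2 ratio (vertical axis) of PCK1, ICL1, ADY2 and ACS1 on single arrays of the 3 menadione courses, treated arrays in red and T0 arrays in black, with the 2 array designs on either side of the dotted line and open circles for the 2 T0 arrays that also stand in the polymerase set. T0 arrays of the 10 second course had PCK1 values of 3.62 to 4.27 in 4 arrays and below 0 in the 2 others, and PCK1 values of the T0 arrays right of the line lay between -0.62 and 0.21.

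In the 10 second course the outcome for the members depended on 2 of the T0 arrays. None of the 10 members passed between 130 to 180 s and T0 (limma, 1.27% of 4420 genes passed, 0.407% higher and 0.86% lower; 946 genes and 2 members, ADY2 and SFC1, had an unadjusted p under 0.05). PCK1 ran between 3.29 and 3.87 in the 6 treated arrays, against -1.19, -0.80 and 3.62 to 4.27 at T0. The 2 low values were those of T0 replicates 4 and 5, which also had ribosomal protein medians of 1.79 and 1.72 where the other 4 had -1.63 to -1.19. Without both, ADY2 fell by 1.22 (SE 0.25, adjusted p = 0.0104), with -3.47 to -2.13 in treated cells and -1.91 to -1.38 in the 4 T0 arrays left, and no other of the 9 tested members passed. Without replicate 4 alone ADY2 also passed (-1.06, adjusted p = 0.0447). Without both, PCK1 differed by -0.23 ± 0.18 (adjusted p = 0.579) and ACS1 by -0.59 ± 0.15 (adjusted p = 0.0397, under 2-fold). ACS1 had -0.55 to -0.29 in treated cells and -0.17 to 0.37 in those 4 T0 arrays. With all 6 T0 arrays only SFC1 had ranges that did not overlap, 2.43 to 3.10 in 5 treated arrays and -1.76 to 2.38 at T0. Without centring, values differed by 1.28 to 3.40 in 9 members and 8 passed, along with 3412 of all genes.

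The polymerase set asked whether transcripts rise when RNA polymerase II is inactive. In its tests the arrays at both menadione times of a strain were taken as replicates of each other. Over the 3 strains 7 of 9 tested members rose with menadione. MLS1 rose by 4.18 ± 0.54, SFC1 by 3.59 ± 0.30, PCK1 by 3.51 ± 0.19, ICL1 by 3.46 ± 0.24, FBP1 by 1.78 ± 0.27, ADY2 by 1.67 ± 0.19 and ACS1 by 1.19 ± 0.16 (23.7% of 1448 genes rose and 18.7% fell). ADH2 differed by 0.42 ± 0.24 (adjusted p = 0.149) and MDH2 by 0.20 ± 0.16 (adjusted p = 0.288). CIT2 had no value at 0 min in S288c and was not tested.

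PCK1 had values of -2.53 and -2.38 at 2 and 30 min in rpb1-1 and -3.64 in the single 0 min array that measured it. In the parental strain it had 3.61 and 3.49 under menadione and -0.83 and -1.29 before. In S288c it had 3.87 and 3.41 under menadione and -0.91 and -1.25 before. The menadione values of rpb1-1 thus lay below the untreated values of both other strains.

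The response of rpb1-1 fell short of that of the parental strain in 8 of 10 tested members (23.4% of 1498 genes had a higher and 15.8% a lower response). SFC1 had -3.15 and -2.98 under menadione and -2.99 before in rpb1-1, and 3.25 and 2.55 under menadione and -3.01 and -4.14 before in the parental strain. The response of SFC1 was lower by 6.55 (SE 0.71, adjusted p = 0.000898). FBP1 had -6.15 at 2 min and -4.64 at 0 min in rpb1-1, with no value in its other arrays, and 0.85 and 1.21 against -3.90 and -2.79 in the parental strain, a difference of -5.88 ± 0.72 (adjusted p = 0.00129) whose spread comes from the paired arrays of the other strains, since the lone rpb1-1 arrays were assumed to vary like these. ADY2 fell short by 3.79 (SE 0.46), PCK1 by 3.42 (SE 0.49), ACS1 by 3.13 (SE 0.40) and ICL1 by 2.58 (SE 0.60, adjusted p = 0.0118).

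On the centred scale ADY2 moved in opposite ways in rpb1-1 and the parental strain. It had -0.83 and -1.03 under menadione and 0.52 and -0.15 before in rpb1-1. In the parental strain it had 1.11 and 1.10 under menadione and -1.78 and -1.37 before. The same held for ACS1, with -0.59 and -0.88 against 0.76 and 0.90 in rpb1-1 and 1.92 and 1.88 against 0.09 and 0.58 in the parental strain. These directions in rpb1-1 depend on centring. Its array medians before centring were -1.0 and -3.32 at 0 min and -0.65 and 0.31 under menadione. Without centring the responses differed by -2.30 for ADY2 and -1.64 for ACS1, and neither passed. ADH2 (-1.82, adjusted p = 0.0342) and CIT2 (-1.10, adjusted p = 0.0402, 0.39 without centring) passed narrowly. Both lost their calls without any one of the 2 and 30 min arrays of either strain or without the second 0 min array of rpb1-1, ADH2 also without the first parental 0 min array and CIT2 without the second (-1.91 to -1.19 for ADH2, -1.18 to -1.03 for CIT2). MLS1 differed by -3.44 ± 1.37 (adjusted p = 0.0801, and -4.87 with 0.0109 without the parental 2 min array), and MDH2 by -0.11 ± 0.38 (adjusted p = 0.834).

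**Figure D4:**
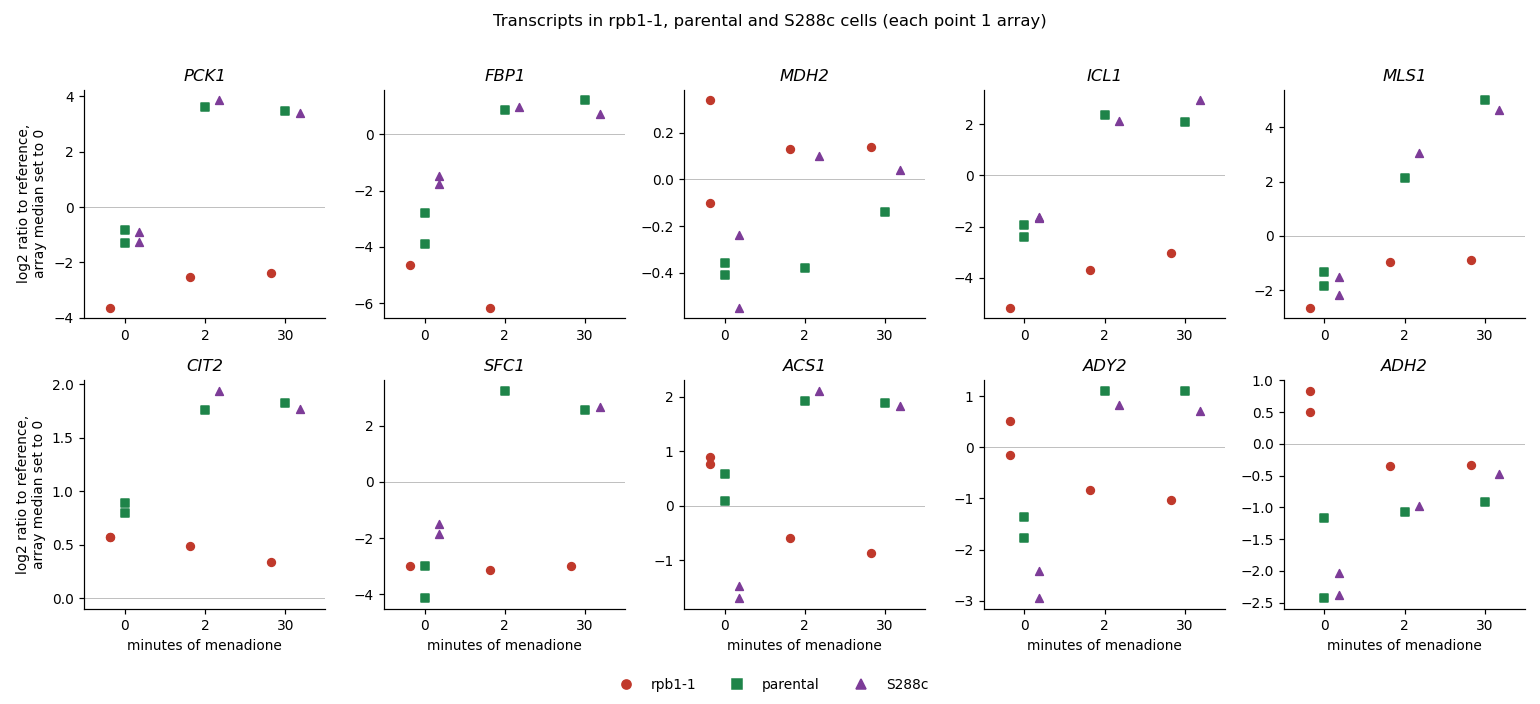
Centred log2 ratio (vertical axis) of the 10 transcripts at 0, 2 and 30 min of menadione (horizontal axis) in rpb1-1 (circles), parental (squares) and S288c (triangles) cells, each point 1 array. For PCK1 the rpb1-1 arrays under menadione lay at -2.53 and -2.38 and those of the other strains between 3.41 and 3.87, while MDH2 stayed between -0.55 and 0.34 in every array.

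The second 0 min array of rpb1-1 had values for 742 genes and none for PCK1, FBP1, ICL1, MLS1 and SFC1, so that these responses rest on 1 untreated array, assumed to vary like the pairs of the other strains, and were not tested without it. The S288c arrays are those also deposited under the courses. Without S288c 4 of 9 tested members rose over the 2 strains left, PCK1 (2.90), ICL1 (3.09), MLS1 (3.44) and SFC1 (3.20), while ACS1 had 0.00 (adjusted p = 0.991) and ADY2 0.79 (adjusted p = 0.047), and 16.9% of all genes rose and 14% fell. Without rpb1-1 8 of 9 rose, ADH2 among them (1.14), where 27.1% of genes rose and 27.8% fell. Without the parental strain 4 of 7 rose, where 23.5% rose and 13.9% fell. With the arrays of rpb1-1 and the parental strain alone, 5 of 9 tested responses passed, those of SFC1, ADY2, PCK1, ACS1 and ICL1, and without centring 2 of the 8 did, those of SFC1 and FBP1.

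Growth state genes moved as well. Medians of the stationary phase genes were 1.28 and 1.29 under menadione and 0.83 and 1.23 before in rpb1-1, between 1.96 and 2.18 under menadione and between -0.62 and -0.34 before in the parental strain, and between 1.83 and 2.06 under menadione and between -1.21 and -1.14 before in S288c. The part of this shift in the members' values was not tested.

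Other lists also split between the strains. The response of 12 of 14 tested glycolytic transcripts was higher in rpb1-1 than in the parental strain, ENO1 by 5.61 ± 0.40. Of all 1498 genes tested, 23.4% had a higher and 15.8% a lower response. VID24 was higher by 5.30 ± 0.54, and ICL2 and MDH3 were lower by 4.04 and 2.92.

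Lysates in buffer separated growth states at the members only in part. In lysates labelled stationary phase, ADY2 ran from -8.85 to 3.98 (median 1.77) in 6 arrays, against -9.05 to -3.46 (median -7.55) in 5 exponential arrays. PCK1 ran from -4.73 to -0.19 (median -1.96) in 5 arrays, against -9.79 to -0.76 (median -8.37) in 6 exponential arrays. Ranges overlapped for every member. ADY2 was higher by 6.99 ± 1.79 (adjusted p = 0.0125), PCK1 by 3.49 ± 0.75 (adjusted p = 0.00804, 0.88 without centring), CIT2 by 2.18 ± 0.50 (adjusted p = 0.00847, -0.18 without centring) and ICL1 by 1.84 ± 0.66 (adjusted p = 0.0374, -0.17 without centring), which are 4 of 7 tested members (19 and 17.9% of 2410 genes were higher and lower). ICL1 lost its call (1.50 to 1.88) without any one of 7 arrays, namely exponential Qiagen and proteinase K buffer replicates 1 and 2, exponential trypsin buffer replicate 2, and stationary phase Qiagen and proteinase K buffer replicate 1. ADH2, at 1.87 ± 0.73 (adjusted p = 0.053), passed (2.24 to 2.25) without exponential proteinase K buffer replicate 1, exponential trypsin buffer replicate 2 or stationary phase Qiagen buffer replicate 2.

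With the trypsin buffer lysates alone, chosen after seeing the data, the labels and the stationary phase genes went together and the growth states separated. PCK1 had -0.24 and -0.19 in stationary phase and -7.76 and -8.98 in exponential lysates, FBP1 0.79 and 0.29 against -5.22 and -5.53, and ADY2 3.80 and 3.98 against -7.55 in the 1 array that measured it. All 9 members measured in both were higher without overlap, on only 1 or 2 arrays a side, which leaves little room for overlap. The share of all genes without overlap was not counted. In limma 4 of 5 tested members passed, PCK1 by 8.15, FBP1 by 5.92, CIT2 by 4.23 and MDH2 by 2.05, with ADH2 at 2.31 (adjusted p = 0.13), where 25.4% of 1711 genes were higher and 29.7% lower. In the Qiagen buffer lysates the stationary phase genes also went with the labels, with medians of -0.09 and 1.04 against -2.25 and -2.19. There PCK1 had -1.96 and -4.54 in stationary phase and -0.76 and -0.93 in exponential lysates. ICL1, MLS1, SFC1 and MDH2 were likewise lower in stationary phase. ADY2 (-0.65 and 1.92 against -3.59 and -3.46) and ADH2 were higher, and FBP1 and CIT2 overlapped. The array labelled stationary phase, proteinase K, buffer, replicate 2 had ADY2 at -8.85 and FBP1 at -7.27, within the exponential ranges. Without the proteinase K lysates 3 of 7 tested members passed, where 16.9% of 2417 genes were higher and 19% lower.

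Protease moved no member past the test. In the lysates labelled stationary phase PCK1 differed by -2.95 ± 0.80 and FBP1 by -2.08 ± 0.80 between protease and buffer (adjusted p = 0.204 for both), and in the exponential lysates PCK1 by -0.97 ± 0.75 (adjusted p = 0.992). In limma no gene passed in either state or in the difference between them (0%), while 543 of 2399, 72 of 2461 and 349 of 2304 genes had an unadjusted p under 0.05, PCK1 and FBP1 of stationary phase being the only members. With trypsin, PCK1 had -3.69 and -3.91 in protease and -0.24 and -0.19 in buffer, and FBP1 -3.55 and -3.41 in protease and 0.79 and 0.29 in buffer. The first 2 min menadione trypsin arrays, in protease and in buffer, had stationary phase medians of -2.31 and -2.46 and ADY2 values of -3.03 and -2.98, and their replicates had medians of 3.33 and 2.67 and ADY2 values of 3.69 and 3.94. Without the buffer proteinase K replicate 2, PCK1 (-2.95, adjusted p = 0.0405) and CIT2 (-1.39, adjusted p = 0.0372) fell with protease, and without the Qiagen protease replicate 2 PCK1 fell (-3.64, adjusted p = 0.0456).

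The isolation set compared what different extractions of unstressed stationary phase cells yield. Hot phenol gave higher values than the modified Gentra method for 5 of 9 tested members, SFC1, FBP1, PCK1, ICL1 and MLS1 (8% of 4185 genes were higher and 5.57% lower). FBP1 had -0.11 and -0.27 with hot phenol and -3.95 and -3.55 with modified Gentra, a difference of 3.56 ± 0.21 (adjusted p = 0.00439). PCK1 had -0.32 and -0.21 against -3.23 and -2.96, higher by 2.83 ± 0.16. SFC1 was higher by 3.66 ± 0.36, ICL1 by 2.16 ± 0.24 and MLS1 by 1.40 ± 0.15.

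All values of the members lay between -0.62 and 0.34 with hot phenol, and the SD over all genes of those arrays was 0.58 and 0.60, against 0.77 and 0.96 with modified Gentra. How far this narrower spread enters the differences was not tested. Without hot phenol replicate 2 none of the 9 passed, with adjusted p between 0.0514 and 0.056 for those 5.

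With proteinase K 1 of 9 tested members rose and 4 fell (11.1 and 15.8% of 4190 genes). ADY2 had 1.96 and 1.54 with proteinase K and -0.36 and -0.83 with modified Gentra, and rose by 2.35 ± 0.23 (adjusted p = 0.00185). PCK1 had -4.35 and -4.43 against -3.23 and -2.96 and fell by 1.30 (SE 0.16, adjusted p = 0.00354). FBP1 fell by 1.24, ADH2 by 1.21 and MLS1 by 1.01. Calls were lost for FBP1 (-1.07) and ADH2 (-0.93) without proteinase K replicate 2, for ADH2 (-1.02) without modified Gentra replicate 1, and for MLS1 without modified Gentra replicate 2 (-0.93) or proteinase K replicate 1 (just under 2-fold), while ICL1 passed (-1.21) without modified Gentra replicate 1. Without centring 2 members passed, 1 in each direction. ACS1 had values of 0.40 and 0.71 with proteinase K and -0.62 and -0.71 with modified Gentra, and none with hot phenol, and it rose by 1.22 ± 0.20 (adjusted p = 0.0139) when only the arrays compared were fitted.

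**Figure D5:**
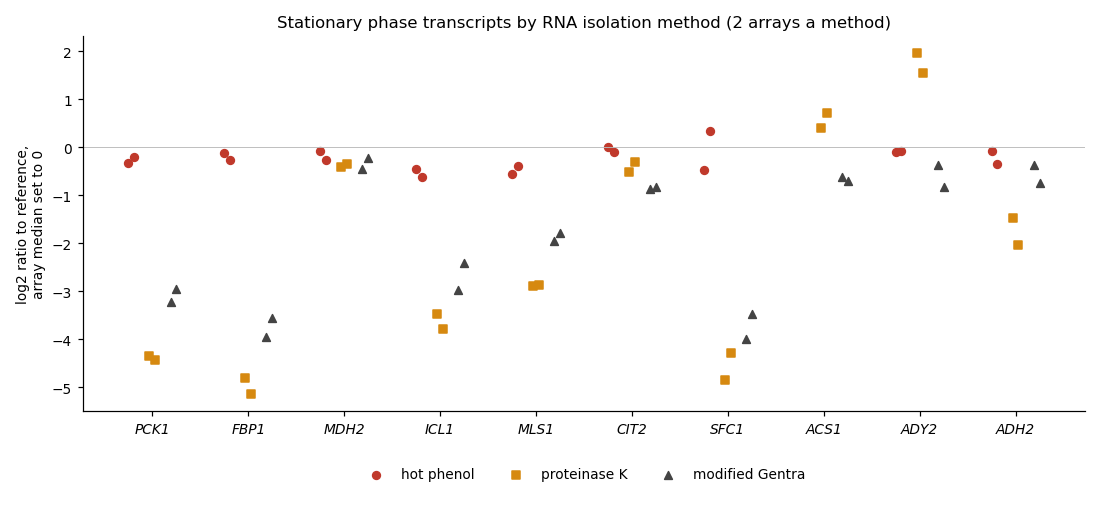
Centred log2 ratio (vertical axis) of the 10 transcripts on single arrays of stationary phase RNA isolated with hot phenol (circles), with proteinase K (squares) or by the modified Gentra method (triangles), 2 arrays each. Hot phenol values lay near 0 for every transcript measured, and proteinase K values of PCK1 and FBP1 lay below those of modified Gentra.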

How the data were processed

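The authors spotted 70-mer oligonucleotides on glass, labelled each sample with Cy5 and a common reference with Cy3, and extracted spots with GenePix. Values were deposited as ratios of sample to reference on a linear scale, except the 10 second course, which the authors deposited as log2 ratios. An added plant RNA served the authors for normalization, and whether the linear values include it is not given in the sources used here. The isolation set had no deposited ratio of 10 or more.

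Linear ratios were put on the log2 scale. Values at or below 0 and the marker 100000 were set missing, probes of 1 gene averaged, and each array centred on its median. Of 6819 and 6979 probes on the 2 designs, 5904 and 5923 had 1 gene symbol in the platform annotation, and 915 and 1056 without a single symbol were left out. No test crossed designs.

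Means per group and time were fitted with limma 3.58.1 in R 4.3.3, except in the polymerase set and the 10 second course. There the menadione times of a strain, or the times within a window, were pooled into a single group. Arrays of different times thus stood in as replicates, and the SEs and p-values of these sets include differences between times. Windows were compared as contrasts, and p-values were adjusted over all genes tested. Genes needed a value in 80% of the arrays fitted and in 2 arrays on each side. Calls needed an adjusted p under 0.05 and 2-fold. The fit was tested on simulated data. Figures and summaries used Python 3.11.15, numpy 2.4.6, pandas 2.3.3 and matplotlib 3.10.9. The number of arrays limits the precision. The methods call the T0, protease and isolation replicates biological, or biological and technical. For the other sets no source used here gives separate cultures, so p-values there measure the spread between arrays, which may be technical.

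Alternatives were no centring, a value in every array compared, robust moderation, fitting only the arrays compared, no fold threshold, the replicate number as a block, and leaving out each replicate. Fits that left out the shared arrays, strains or protease kinds, or crossed replicate numbers, were chosen after seeing the data. The members and gene lists were chosen with earlier results of these data known. All members are named, and of each list the genes with the largest called changes, with isozymes and regulators of the members.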

Additional observations from a re-analysis of the deposited data

Results flagged for a closer look

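Outlying values were sought in the T0 groups of the menadione courses, for each member with 4 to 10 values in a group. Of 27 such checks 2 held a value far from the others, where chance gives about 1 in 20. FBP1 was 1.14 in T0 replicate 1 of the 1 minute course, above the other T0 arrays of that course, and ACS1 was 3.54 in T0 replicate 1 of the 30 minute course. These T0 arrays matched each other across the 2 courses (r = 0.977), so that the checks were not independent.

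The late menadione and late upshift arrays differed in 7 members, by 5.39 for PCK1, 3.64 for MLS1, 3.26 for MDH2, 2.82 for ACS1, 2.78 for FBP1, 2.38 for ADH2 and -1.24 for CIT2, the last -0.34 without centring. Both were set against the same T0 arrays, and treatment and experiment cannot be told apart.

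The response to menadione differed between rpb1-1 and the parental strain in 8 members, by -6.55 for SFC1, -5.88 for FBP1, -3.79 for ADY2, -3.42 for PCK1, -3.13 for ACS1, -2.58 for ICL1, -1.82 for ADH2 and -1.10 for CIT2, the last 0.39 without centring.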

How the results depend on the processing

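Counts are members that passed. Most are given without the share of all genes under the same setting. A change in these counts can therefore not be told from a change in all genes. Without centring they were 1 in place of 5 for late upshift against T0, 8 in place of 0 for 130 to 180 s against T0, 2 in place of 8 for the rpb1-1 response, 2 in place of 4 for stationary phase against exponential buffer lysates and 2 in place of 5 for proteinase K against modified Gentra. Of 132 member values tested, 27 changed sign without centring, 19 of which passed on neither scale. The other 8 were CIT2 early (1.06) and ADY2 late in menadione (0.23), MDH2 (1.28) and ACS1 (1.51) at 130 to 180 s, CIT2 in the rpb1-1 response (0.39), and ICL1 (-0.17), MDH2 (-1.73) and CIT2 (-0.18) in the buffer lysates. Requiring a value in every array compared left fewer members tested, and 2 passed for late upshift against T0, 2 for late menadione against upshift, 2 for menadione over strains, 3 for the rpb1-1 response and 2 for the buffer lysates. The rpb1-1 response had 5 with only the arrays compared.

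Leaving out single replicates gave 5 to 6 members early and 6 to 8 late in menadione, 7 to 8 for late against early, 3 to 5 for late upshift against T0, 2 for late against early upshift, 7 for late menadione against upshift, 0 to 1 at 130 to 180 s, 2 to 7 for menadione over strains, 4 to 7 for the rpb1-1 response, 2 to 5 for the buffer lysates, 0 to 2 for protease in stationary phase lysates, 0 to 5 for hot phenol and 3 to 5 for proteinase K. Of the settings chosen after seeing the data, leaving out both shared T0 arrays gave 1 at 130 to 180 s, and leaving out the parental strain or S288c gave 4 each for menadione over strains.

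The main fit did not take replicate numbers as pairing, since not every correlation of same-numbered deviations was over 0.1. Most in the courses were, with 115 of 120 pairs of times in the 30 minute course (median 0.449) and 621 of 630 in the 1 minute course (0.357). The upshift had 92 of 120 (0.227) and isolation 0 of 3. Arrays of a course series thus shared deviations. The windows of these courses rest on 2 series, while the main fit counted each array as independent, and its p-values do not allow for this. With the number as a block 6 members passed early and 8 late in menadione, 5 for late upshift against T0, 4 for the buffer lysates and 5 for each isolation comparison, all as without it, and 0 for each protease comparison. The stationary phase Qiagen lysates correlated at -0.676, and a block with their numbers crossed passed 1 member, 205 genes higher and 278 lower for protease. The crossing was chosen after seeing these same arrays, so that this fit is no separate test of protease.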
